A study of Pyrus x bretschneideri with 2 samples.

Results

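Sulphur-starvation and sulphate assimilation genes of pear stood higher in fruit wounds given the yeast Meyerozyma guilliermondii than in wounds given water. The 6 genes described here were chosen by identifier out of 45022 genes in the deposited expression table. They are 3 genes described as SULFUR DEFICIENCY-INDUCED 1 (SDI1), 2 described as sulfate transporter 1.2 and 1 described as 5'-adenylylsulfate reductase 3. For the last gene the best database hit gives reductase 3 but the Swiss-Prot description reductase 1, so its isoform is not settled. The names come from the protein descriptions in the authors' deposited table of their comparison, which lists 381 genes and describes no others. All 6 were picked with their values known and because that table lists them as higher with the yeast, so the difference between the libraries is given as a description, with no test.

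The RNA came from the tissue around wounds in fruit of Pyrus x bretschneideri, kept for 3 days at 20 °C. The control wounds received sterile distilled water and the treated ones M. guilliermondii, a yeast studied as a biological control agent of fruit rots. Each treatment had 1 library, the water library and the yeast library in what follows. With 1 library per group no difference has a replicate check. The labels name no cultivar, and the labelled tissue could not be checked against marker genes, since genes outside the authors' table carry no description. Levels are in FPKM, fragments scaled to gene length and library size, with a sum of 692635 over all genes for water and 748043 for the yeast.

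Plants take up sulphur as sulphate through membrane transporters of the SULTR family. Sulphate is then activated to adenylylsulphate, which 5'-adenylylsulfate reductase (APS reductase) reduces to sulphite in the plastid at the expense of glutathione, and sulphite is reduced further to sulphide and built into cysteine. In Arabidopsis, genes of all 3 kinds described here are known to be induced when sulphur runs short. SDI1 of Arabidopsis is a tetratricopeptide repeat protein that represses the synthesis of glucosinolates, sulphur-rich defence compounds of the cabbage family, and SULTR1;2 of Arabidopsis is a high-affinity transporter of root uptake.

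The 3 SDI1 genes were the abundant members. Pbr026169 stood at 6.18 FPKM in the water library against 84.4 in the yeast library. Pbr033006 stood at 0.503 FPKM with water against 26.1 with the yeast, and Pbr026168 at 0.0847 against 14.5. The yeast library was the higher one for each of them, by 13.6-fold for Pbr026169, 51.8-fold for Pbr033006 and 171-fold for Pbr026168 as plain FPKM ratios. In bulk tissue, more cells that express a gene and more RNA of it per cell cannot be told apart.

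**Figure D1:**
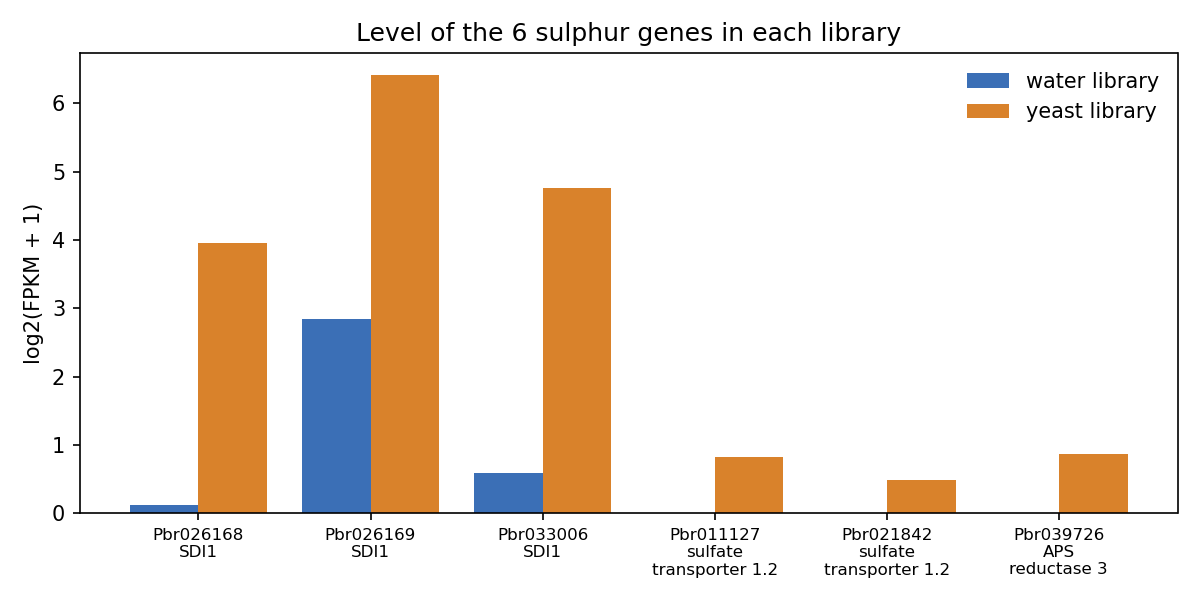
Level of each of the 6 sulphur genes on the log2(FPKM + 1) scale, with 1 bar for the water library and 1 for the yeast library; there are no error bars because each group has 1 library. All 3 SDI1 genes have a taller bar with the yeast, led by Pbr026169 at 84.4 FPKM, while the transporters and the reductase are listed at 0 FPKM with water and stay below 1 FPKM with the yeast.

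The 3 SDI1 genes lay closer together with the yeast than with water. Their summed level was 6.77 FPKM in the water library against 125 in the yeast library, an 18.5-fold ratio. Pbr026169 made up 91.3% of that sum with water and 67.5% with the yeast. The share of Pbr033006 was 7.43% with water and 20.9% with the yeast, and that of Pbr026168 was 1.25% and 11.6%. The order of the 3 genes by FPKM was nevertheless the same in both libraries. Pbr026169 stood 73.0-fold above Pbr026168 with water and 5.81-fold above it with the yeast. The water ratio and the 1.25% share are imprecise, as Pbr026168 had only 4 implied reads there, worked out below. Above Pbr033006, which had 51 implied reads with water, Pbr026169 stood 12.3-fold with water and 3.24-fold with the yeast. As described below, Pbr026168 and Pbr026169 may share reads, and the level of Pbr033006 may include reads of a ligase part. Ranked among all 45022 genes by FPKM, Pbr026169 was at place 12532 in the water library but 1556 in the yeast library. Pbr033006 was at place 23511 and then 4844, and Pbr026168 at 27175 and then 7565.

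The transporters and the reductase were far lower in FPKM. The sulfate transporter 1.2 genes Pbr011127 and Pbr021842 were listed at 0 FPKM in the water library but at 0.760 and 0.396 FPKM in the yeast library. The APS reductase gene Pbr039726 was listed at 0 with water but at 0.813 FPKM with the yeast. None of these 3 reached 1 FPKM in either library, and no FPKM ratio is given against a listed 0. With the yeast the most abundant SDI1 gene therefore stood at 84.4 FPKM beside less than 1 FPKM for each transporter gene and for the reductase. With the yeast the transporters had 144 and 128 of the reads worked out below, beside 540 for Pbr026168, the lowest SDI1 gene. These reads are not scaled to gene length, so they do not compare levels between genes.

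Whole read numbers behind these levels could be worked out from the authors' deposited table. Among genes listed at 0 FPKM in one library, only the largest deposited folds were used, and most of these fall on regular steps, 1 for each read. The water step was met by 65 of 66 such genes and the yeast step by 19 of 23. The steps of both libraries correspond to a mean of 0.125 reads added before the ratio was taken. With the 2 steps known, 333 of the 381 deposited log2 fold changes were met by exactly 1 pair of whole numbers among those searched, within a tolerance of 2e-05 reads. All 6 sulphur genes were among the 333, the largest misfit being 1.35e-07 reads. The ratio of the steps put the water library at 1.05 times the size of the yeast library. The ratio of reads per FPKM between the libraries had a median of 1.05 too, over 217 of the 333 genes. These 217 had FPKM and reads above 0 in both libraries. These numbers are an inference, since the comparison tool is not given in the sources used here, and the intervals below cover counting error only.

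For the SDI1 genes the implied reads gave folds near those of FPKM. Pbr026169 had 261 reads in the water library against 3488 in the yeast library, a fold of 14.0 per library size (exact 95% interval 12.3 to 15.9). Pbr033006 had 51 reads and 2361 reads, a fold of 48.4 (36.7 to 65.2). Pbr026168 had only 4 reads with water against 540 with the yeast, a fold of 141 whose interval ran from 54.8 to 520. The fold of Pbr026169 thus lay below those of the other SDI1 genes by more than counting error, whereas the intervals of Pbr026168 and Pbr033006 overlapped. In the authors' deposited table the log2 fold changes were 3.80 for Pbr026169 (adjusted p = 4.84e-05), 5.59 for Pbr033006 (6.83e-09) and 7.10 for Pbr026168 (4.85e-10), values that compare these 2 libraries and not the treatments.

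For the transporters the reads differed from the listed 0. Pbr011127 had 7 implied reads in the water library against 144 in the yeast library, a fold of 21.5 (exact 95% interval 10.2 to 54.4). Pbr021842 likewise had 7 with water and 128 with the yeast, a fold of 19.1 (9.01 to 48.5). The intervals of these folds overlapped almost wholly, and both transporter genes were already counted in the water library although its FPKM lists them at 0. Such a listing was common: of 38 genes of the authors' table with 0 FPKM in the water library and 1 whole-read solution, 20 had at least 1 implied read there. Both genes carry the same description, so how their reads were divided is uncertain, and they may share reads.

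The FPKM of the transporters was also low for their reads. Pbr011127 had 189 implied reads per FPKM in the yeast library and Pbr021842 had 323. The median was 51.0 over 252 genes of the authors' table, those with 1 whole-read solution and FPKM and reads above 0 there. Only 22 of these 252 genes had more reads per FPKM than Pbr011127, and 12 had more than Pbr021842. By reads Pbr011127 was 1.13-fold above Pbr021842 with the yeast, and by FPKM 1.92-fold. Gene lengths are not in the files, so the part of length in this was not tested. In the authors' deposited table the log2 fold changes were 4.40 for Pbr011127 (adjusted p = 0.000101) and 4.23 for Pbr021842 (0.000230).

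The APS reductase gene Pbr039726 was the 1 member with no read in the water library. It had 0 implied reads with water and 51 with the yeast, where the exact 95% Poisson interval was 38.0 to 67.1. Its 51 reads were 17.8-fold above a floor of 3 reads in the water library, per library size, and the exact 95% interval of the fold, which has no upper limit, began at 13.9. The authors' deposited table gives it a log2 value of 8.71 (adjusted p = 8.38e-05), a size that depends on the small number of reads added before the ratio was taken. That value placed it 7th among the 143 genes called higher, ahead of every SDI1 gene, although it had the fewest reads of the 6 in the yeast library.

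**Figure D2:**
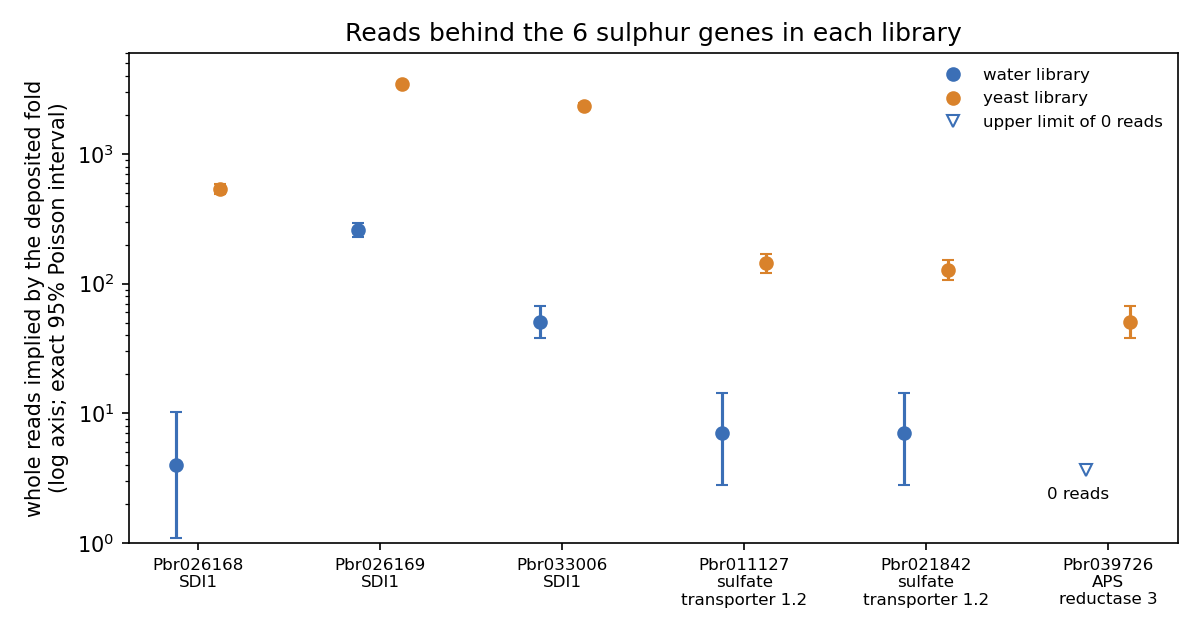
Whole reads implied by the authors' deposited fold changes for each of the 6 sulphur genes, on a log axis, in the water library and the yeast library; bars are exact 95% Poisson intervals for counting error only, and the open triangle is the upper limit for 0 reads. The intervals of the 2 libraries are apart for every gene, from 0 against 51 reads for Pbr039726 to 261 against 3488 for Pbr026169. The genes were chosen as called and the reads come from the deposited folds, so nothing is read from this separation.

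Set against all genes, the SDI1 genes lay far from the diagonal. On the log2((yeast + 1)/(water + 1)) scale, which understates differences of low genes, the ratio was 4.17 for Pbr033006, 3.84 for Pbr026168 and 3.57 for Pbr026169, beside a median of 0.01 over the 22603 genes that reached 1 FPKM in one library or both. The 3 genes that reached 1 FPKM were all at least 2-fold higher, where 3.32% of those 22603 genes were, and all at least 4-fold higher, where 0.637% were. As the genes were chosen from this same contrast, nothing is read from that count. The transporters and the reductase did not reach 1 FPKM and had ratios of 0.82, 0.48 and 0.86 on this scale. The authors' deposited table lists 143 genes as higher, 0.318% of the 45022, with a largest adjusted p of 0.00994, and all 6 sulphur genes are in it by choice.

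**Figure D3:**
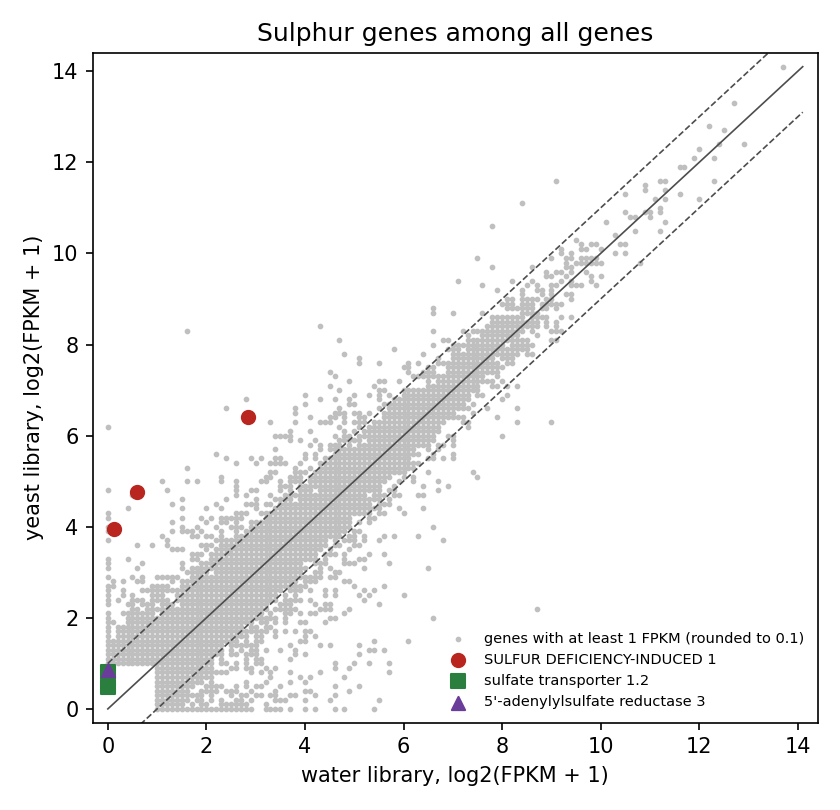
Levels in the yeast library against the water library, both as log2(FPKM + 1), for all genes that reached 1 FPKM in one library or both (grey, rounded to 0.1 and drawn once per position) and for the 6 sulphur genes (coloured); the solid line marks equal levels and the dashed lines a 2-fold difference. The 3 SDI1 genes lie above the upper dashed line at ratios of 3.57 to 4.17, and the transporters and the reductase sit at the left edge below 1 FPKM.

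The description of the SDI1 genes rests on Arabidopsis. All 3 carry tetratricopeptide repeat domains, the protein-interaction repeats of the SDI1 family, and no other gene of the authors' table carries them. Their best database hits are uncharacterized pear proteins, LOC103928677 for Pbr026168, LOC103928676 for Pbr026169 and LOC103960628 for Pbr033006. In the RefSeq gene table of Pyrus_bretschneideri_v1 the first pair follow each other directly, and LOC103928677 is classed there as a pseudogene. Pbr026168 and Pbr026169 also have consecutive identifiers, and as neighbours of one family they may share reads. Pbr033006 differs from both in that it also carries pantoate-beta-alanine ligase domains, of an enzyme of pantothenate synthesis. It had 90.5 implied reads per FPKM in the yeast library, against 41.3 for Pbr026169 and 37.2 for Pbr026168, so reads of a ligase part and of an SDI1 part cannot be told apart in its level. The best hits of all 6 sulphur genes are proteins of Pyrus x bretschneideri and not of a yeast.

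Genes next to the members by identifier mostly lay within 2-fold between the libraries on the log2((yeast + 1)/(water + 1)) scale. Of 10 such neighbours outside the set, 7 lay within 2-fold and 2 were listed at 0 in both libraries. The remaining 1 was at least 2-fold higher with the yeast. The transporters and the reductase also lay within 2-fold on this scale, at ratios of 0.82, 0.48 and 0.86. Of the 22603 genes that reached 1 FPKM, 3.32% were at least 2-fold higher, so nothing is read from that count. Pbr026167 and Pbr026170, on either side of the SDI1 pair, had 41.3 and 48.6 FPKM with water against 29.9 and 37.9 with the yeast. The exception was Pbr011128, next to the transporter gene Pbr011127, at 0.974 FPKM with water against 4.18 with the yeast. It carries no description and is not in the authors' table, so its identity is not known here.

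Other steps of sulphur metabolism were searched for among the 381 described genes. The list covered sulphate transport and reduction, cysteine, methionine and glutathione synthesis and other sulphur enzymes, and matched 10 genes, 7 higher and 3 lower with the yeast, beside 143 higher and 238 lower of all called genes. The 6 sulphur genes themselves are 6 of the 7 higher ones, so the split follows from their choice. The remaining higher gene was the S-adenosylmethionine synthase 2-like gene Pbr026061, whose enzyme makes the methyl donor S-adenosylmethionine from methionine, at 0.554 FPKM with water against 6.15 with the yeast. It had 39 and 351 implied reads, a fold of 9.41 (exact 95% interval 6.75 to 13.5). On the lower side, Pbr012463 carries a sulfite exporter TauE/SafE domain and had 0.339 FPKM and 48 implied reads with water, and was listed at 0 with 0 reads with the yeast. The other lower ones were allene oxide synthases, Pbr006205 (6.56 FPKM with water against 0.780 with the yeast) and Pbr006204 (2.72 against 0.155), enzymes of jasmonate synthesis that the list caught through a glucosinolate term among many deposited process terms.

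No called gene matched serine acetyltransferase, cysteine synthase, sulphite reductase, ATP sulfurylase, glutathione synthesis or turnover, or the SLIM1 family, whose Arabidopsis member controls the response to sulphur shortage. This says only that no such gene is in the authors' table, since genes that were not called carry no description. Beside the APS reductase gene, a list of glutathione transferases, peroxidases, reductases and glutaredoxins matched 1 called gene, the glutathione S-transferase U8-like gene Pbr020346, at 7.52 FPKM with water against 0.802 with the yeast, the opposite direction to the sulphur genes.

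For each sulphur gene the described gene of the authors' table nearest to it in level was looked up, by Euclidean distance of log2(FPKM + 1) over the 2 libraries among 302 candidates. The nearest to Pbr026169 was XLOC_042461, described as cytochrome P450 like_TBP, at 6.12 FPKM with water against 111 with the yeast. XLOC_008163, with the same description, was nearest to Pbr033006, at 0.368 and 25.3. Pbr000076, described as the kinase PERK10, was nearest to Pbr026168, listed at 0 with water but at 18.9 FPKM with the yeast. The low members lay nearest to genes equally listed at 0 with water, Pbr003307 for Pbr011127 and Pbr039726 and Pbr021377 for Pbr021842. Such nearness rests on 2 values per gene, and all candidates were genes called as different between these same libraries.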

How the data were processed

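Per the labels' protocols, Illumina TruSeq libraries were built from total RNA, 1 for each treatment. The authors deposited FPKM values for all genes, and a table of called genes with a log2 fold change of yeast over water and an adjusted p-value (FDR), per the file headers. Per the submitters' processing notes, Bowtie 0.12.2 was among the tools. Which counter, genome build, annotation and comparison tool were used is not given in the sources used here. Table columns were matched to treatments through the sample titles.

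No test was computed, with 1 library per group. Ratios used a pseudocount of 1 FPKM, a 2-fold size rule and a filter that kept genes reaching 1 FPKM in one library or both. Implied reads were the whole numbers whose ratio, after the added fraction of a read per library, equals the deposited fold; up to 4000 reads in the lower library were searched. Fold intervals are exact (Clopper-Pearson) binomial intervals at 95% on the 2 read numbers, scaled by library size. The size rule was tried on simulated data with counting error only. The search was tried on simulated folds made by the formula it assumes, which cannot show what formula the authors used. The reference gene table carries none of the Pbr identifiers; 3 of 3 LOC names of best hits matched it. Members, lists and alternatives were chosen with earlier results of these data known, and the read search after seeing the files. Named genes were the 6 members, all called genes of the sulphur list and the described gene nearest in level to each member; neighbours by identifier and the glutathione S-transferase were named after their values were seen. Python 3.11.15, pandas 2.3.3, SciPy 1.17.1 and matplotlib 3.10.9 were used.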

Additional observations from a re-analysis of the deposited data

How the results depend on the processing

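All 6 genes stayed higher with the yeast under every alternative tried, but they were chosen as higher, so nothing is read from this. A pseudocount cannot change which library is higher, and the implied reads come from the deposited folds. The pseudocount set the size of the log2 ratio. With 0.1 in place of 1 it was 6.31 for Pbr026168, 5.44 for Pbr033006, 3.10 for Pbr011127, 2.31 for Pbr021842 and 3.19 for Pbr039726 (0.86 with 1), and with 0.5 it was 4.73 for Pbr033006. By implied whole reads, an alternative chosen after seeing the data, with 0.5 added to each number, it was 6.97 for Pbr026168, 3.80 for Pbr026169, 5.58 for Pbr033006, 4.33 for Pbr011127, 4.16 for Pbr021842 and 6.75 for Pbr039726, whose value depends most on what is added. The number of the 6 genes at least 2-fold higher was 3, and 6 by implied reads or with no filter and a pseudocount of 0.1, both chosen after seeing the data. The smallest deposited log2 fold change of any called gene is 2.66 in size, so the 6 by implied reads follow from the choice. For neither setting that gave 6 was the share of all genes worked out, so nothing is read from that number. Of all genes, 750 were at least 2-fold higher and 678 lower, against 470 and 382 at 5 FPKM, 144 and 194 at a 4-fold threshold, and 1347 and 1100 with a pseudocount of 0.1. Setting both libraries to the same FPKM sum lowered every ratio by 0.11 on the log2 scale before the pseudocount, gave 643 and 763, and left the 3 genes that reached 1 FPKM at ratios from 3.47 to 4.10. The sulphur list had 0 lower genes by best hit or Swiss-Prot description only, and 4 higher ones at 1 FPKM. Of 57 alternative values, 36 kept within counting error or within 1.5 times a count. For Pbr039726, with no upper limit, the distance to its lower limit was used both ways. Counting error does not measure a change of pseudocount, and it is widest for genes with few reads. A move from 0.86 to 3.19 for Pbr039726 thus counted as kept, whereas one from 3.57 to 3.80 for Pbr026169 did not. The 36 is therefore no measure of robustness. No paired analysis was possible because each group has 1 library. Depth limits Pbr026168, the transporters and the reductase in the water library, with 4, 7, 7 and 0 implied reads.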
